A study of Neurospora crassa with 8 samples.

Results

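Among 9733 counted genes of *Neurospora crassa*, 69 had at least 3 times the RNA level of *wt* in both white collar knockouts in constant light, and lay within set limits of their dark level after 30 and 120 min of light in dark-kept *wt*. The genes were chosen from read counts. Exon counts of the 3 constant light libraries were summed per gene and expressed as reads per 1000000 counted reads (CPM). A gene was kept with at least 50 reads in both knockouts and a CPM at least 3-fold above *wt* in both. It also had to have a sense CPM at 30 and 120 min of light that lay above 0.67 times and below 2 times the dark value. The levels in the knockouts, in *wt* constant light, in the dark and at 30 and 120 min therefore describe the choice and were not tested. The 60 min library, the antisense reads and the gene order were not part of the rule. The single exons and the relation of the knockouts to each other set no limit, but rest on reads that the rule used.

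The groups were Δ*wc1* (Δwc1::hyg) and Δ*wc2* (Δwc2::hyg), against *wt* (74-OR23-1VA), all kept as mycelium in liquid culture under constant light for 48 h. A time course of the same *wt* comprised mycelium kept dark for 24 h and then lit for 0, 30, 60 or 120 min. Each of these 7 conditions had 1 library, so no difference has a replicate check. Intervals of ratios are exact 95% (Clopper-Pearson) intervals that cover counting error only and compare libraries, not conditions. In whole mycelium, more RNA per cell and more cells of one kind cannot be told apart.

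WC-1 and WC-2 form the white collar complex (WCC), a transcription factor in which WC-1 is the blue light receptor. On illumination the WCC activates genes of carotenoid synthesis, photoprotection and light adaptation, such as *vvd*, and in the circadian clock it drives *frq*, whose product inhibits the complex. Genes activated by the WCC are expected to be lower in its absence, whereas the 69 genes were chosen for the opposite direction.

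The counted reads were 22445139 in Δ*wc1*, 22215526 in Δ*wc2* and 26210537 in *wt* constant light, and 9725970 to 21422091 sense reads in the time course. The 20 genes with the most reads held 34.1% of them in Δ*wc1*, 34.5% in Δ*wc2* and 40.4% in *wt*. The knockout labels were checked on the targeted genes. The gene total of *wc-1* went against its label, with 1290 reads in the library labelled Δ*wc1*, 252 in Δ*wc2* and 332 in *wt*. Exon line 1 of *wc-1*, however, held 3 reads in Δ*wc1*, 63 in Δ*wc2* and 88 in *wt*, and its excess came from line 2 with 1287, 189 and 244 reads in the same order. For *wc-2*, line 2 held 3 reads in the library labelled Δ*wc2*, 320 in Δ*wc1* and 303 in *wt*. The names Δ*wc1* and Δ*wc2* below stand for the libraries so labelled. The strand of the constant light reads is not given in the sources used here.

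As a group, the 69 genes took 2.49% of the counted reads in Δ*wc1* and 2.22% in Δ*wc2*, against 0.508% in *wt* constant light. One gene, NCU10051, carried much of this, and without it the shares were 1.29%, 1.14% and 0.218%. The median member had 74.9 CPM in Δ*wc1*, 57.2 CPM in Δ*wc2* and 11.1 CPM in *wt*. The ratios to *wt* had a median of 4.97 and ranged between 3.01 and 97.1 in Δ*wc1*, and had a median of 4.08 and ranged between 3.03 and 48.4 in Δ*wc2*. Of 7246 genes with 50 or more reads in both knockouts, 6.03% were at least 3-fold higher in Δ*wc1*, 3.34% in Δ*wc2* and 2.58% (187 genes) in both. The time course limits left 69 of the 187 (0.952% of the 7246). Of the 118 that were left out, 104 lay at or below 0.67 times and 22 at or above 2 times the dark level, including 8 with both. With the read and fold limits applied to Δ*wc1* alone the rule kept 224 genes, and with Δ*wc2* alone 93, so that Δ*wc2* was the narrower condition.

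The smaller of the 2 knockout ratios was at least 10 in 8 members, 5 to 10 in 12 and 3 to 5 in 49, of which 38 were below 4. Counting error alone left 44 members with both lower bounds at 3 or higher. The median gene was itself 0.26 higher in Δ*wc1* and 0.21 higher in Δ*wc2* than in *wt* on the log2 scale (7124 genes), next to 2.31 and 2.03 for the members. Under median-of-ratios factors, which bring the median gene to 0.02 and 0.04, the members' medians were 2.08 and 1.85 and all 69 were still above *wt*, the lowest by 2.55-fold in Δ*wc1* and 2.68-fold in Δ*wc2*. With these factors the rule itself kept 43 of the 69. The members' ratios were set by the rule, and only the general shift, which depends on the scaling, is free of it.

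The knockout libraries also differed from *wt* in markers of conidiation, the formation of asexual spores. Of *con-6*, *con-8*, *con-10*, *eas* and *fl*, 5 of 5 were lower in both knockouts. The share of all genes lower in both was not calculated. *con-6*, *con-10*, *eas* and *fl* also belong to the list of 23 genes of the white collar pathway and related functions compared below. Fewer spores and less RNA per cell cannot be told apart from these values. The summed level of the 5 markers was 125.1 CPM in Δ*wc1* and 217.2 CPM in Δ*wc2*, against 7807 CPM in *wt* constant light, and none was at 0. In constant light most of the sum came from *eas* and *con-8*. *eas* had 90.7 CPM in Δ*wc1*, 172.9 CPM in Δ*wc2* and 6097 CPM in *wt*, and *con-8* had 13.6, 20.4 and 1627 CPM. *con-10* had 2.98, 4.59 and 54.7 CPM, *con-6* had 2.72, 2.12 and 6.41 CPM, and *fl* was closest between the libraries with 15.2, 17.2 and 22.2 CPM. In the *wt* time course the sum was 3538, 14700, 25230 and 15520 CPM at 0, 30, 60 and 120 min. The markers did not change together there. From dark to 60 min, *con-10* went from 30.1 to 11090 CPM, *con-6* from 8.06 to 8634 and *con-8* from 552.9 to 2981. *eas* went from 2803 to 2424 CPM and *fl* from 143.1 to 98.1. The part of the marker difference between the knockouts and *wt* in the levels of the 69 genes was not tested.

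**Figure D1:**
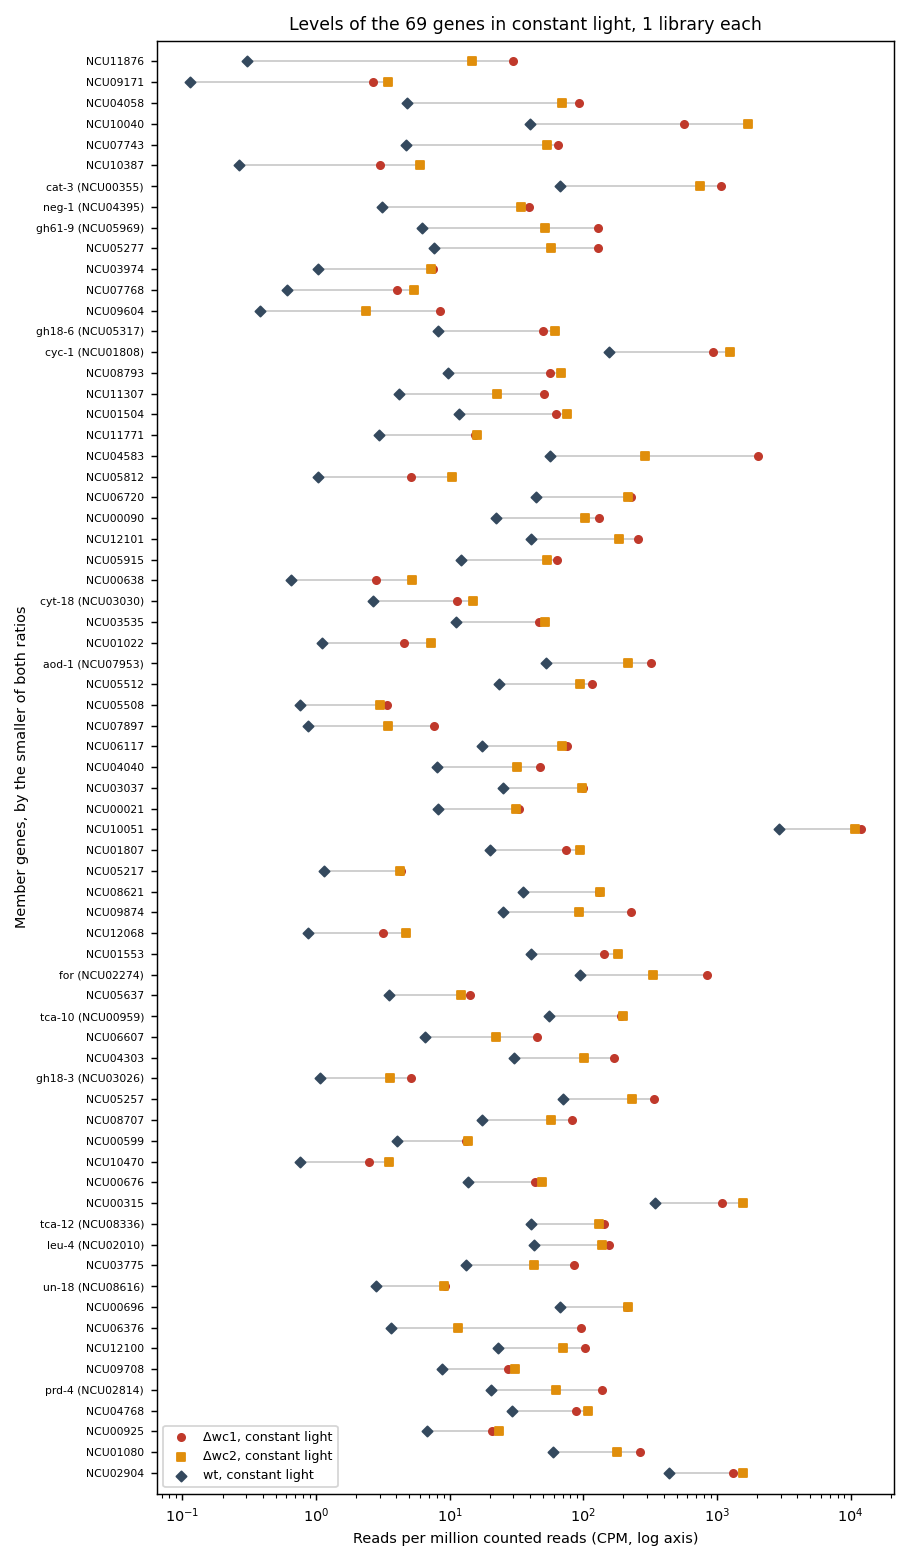
Level of each of the 69 genes in constant light in CPM (log axis), with 1 point for each of the Δ*wc1*, Δ*wc2* and *wt* libraries and genes ordered by the smaller knockout ratio. The *wt* point lies to the left of both knockout points in every row because the rule chose the genes so, and levels span 2.39 to 11950 CPM in the knockouts.

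**Figure D2:**
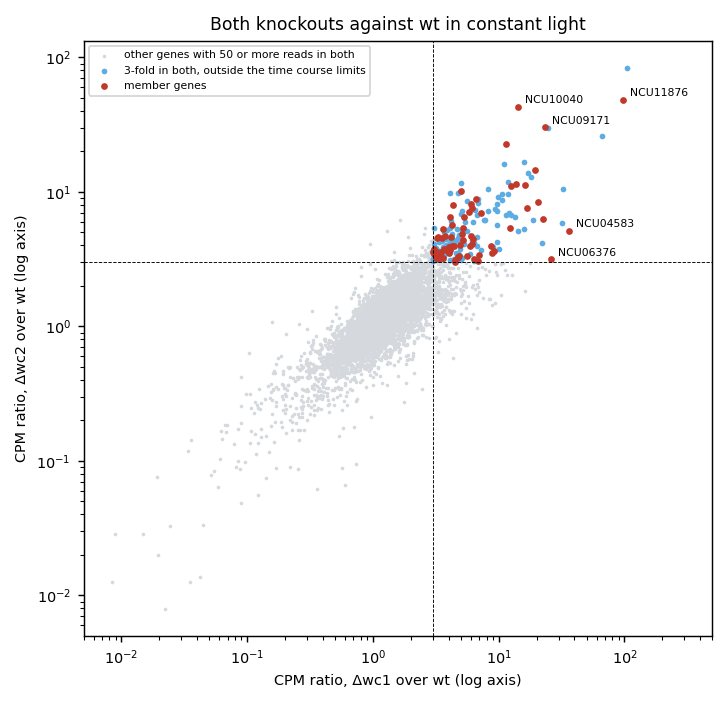
CPM ratio of Δ*wc1* over *wt* (x axis) and of Δ*wc2* over *wt* (y axis) in constant light, both on log axes, for genes with 50 or more reads in both knockouts. Dashed lines mark the 3-fold limit. The 69 members (red) and the 118 genes left out by the time course limits (blue) fill the same upper right area, and NCU04583 and NCU06376 stand out with a far larger ratio in Δ*wc1*.

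Only 14 members carry a gene symbol in the RefSeq table, and several of these belong to mitochondrial metabolism. The most abundant, *cyc-1* (NCU01808), encodes cytochrome c, which carries electrons to cytochrome c oxidase. It had 939.2 CPM in Δ*wc1* and 1263 CPM in Δ*wc2*, against 156.3 CPM in *wt* (6.01-fold, interval 5.81 to 6.21, and 8.08-fold, 7.82 to 8.35). *aod-1* (NCU07953) encodes the alternative oxidase, which passes electrons to oxygen without cytochrome c. Its levels were 321.2 and 214.8 CPM in Δ*wc1* and Δ*wc2*, against 52.7 CPM in *wt* (6.10-fold and 4.08-fold). They are 1 gene for each route and were chosen by the rule.

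*tca-10* (NCU00959) and *tca-12* (NCU08336), named for the tricarboxylic acid cycle, were among the members as well. *tca-10* had 191.8 CPM in Δ*wc1* and 196.7 CPM in Δ*wc2*, against 55.2 CPM in *wt*. *tca-12* had 143.9 and 130.4 CPM in Δ*wc1* and Δ*wc2*, against 40.8 CPM in *wt*. Both were therefore 3.20-fold to 3.56-fold higher, close to the limit of the rule. *cyt-18* (NCU03030), the mitochondrial tyrosyl-tRNA synthetase that also acts in splicing of group I introns, was far less abundant, with 11.3 and 15.0 CPM in Δ*wc1* and Δ*wc2*, against 2.67 CPM in *wt*.

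*cat-3* (NCU00355), a catalase that breaks down hydrogen peroxide in growing hyphae, had 1074 CPM in Δ*wc1* and 745.8 CPM in Δ*wc2*, against 66.7 CPM in *wt*. The ratios were 16.1 (interval 15.3 to 16.9) and 11.2 (10.6 to 11.8), the highest among the members with a symbol when the smaller ratio is taken. The other catalase genes did not share this pattern. *cat-1* had 95.4 and 116.4 CPM in Δ*wc1* and Δ*wc2*, against 218.8 CPM in *wt*. *cat-2* had 41.6 and 78.7 CPM in the knockouts, against 214.2 CPM in *wt*, so that both were lower, while *cat-4* had 4.14 and 6.17 CPM in the knockouts, against 3.43 CPM in *wt*.

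A further 4 named members encode enzymes that act on polysaccharides. *neg-1* (NCU04395) encodes an endo-β-1,6-glucanase. It had 879 reads in Δ*wc1* and 763 in Δ*wc2*, against 82 in *wt* (12.5-fold and 10.98-fold). *gh18-6* (NCU05317) and *gh18-3* (NCU03026) belong to glycoside hydrolase family 18, which contains the chitinases. *gh18-6* had 1123 and 1376 reads in Δ*wc1* and Δ*wc2*, against 214 in *wt* (6.13-fold and 7.59-fold). *gh18-3* was rare, with 116 and 79 reads, against 28 in *wt*, and the interval of its Δ*wc2* ratio (2.14 to 5.32) extended below the 3-fold limit. *gh61-9* (NCU05969), of a family of enzymes that cleave cellulose oxidatively, had 2887 reads in Δ*wc1* and 1157 in Δ*wc2*, against 163 in *wt* (20.7-fold and 8.37-fold).

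The remaining named members act in other pathways. *for* (NCU02274) encodes a serine hydroxymethyltransferase of one-carbon metabolism and had 842.2 CPM in Δ*wc1* and 334.7 CPM in Δ*wc2*, against 95.2 CPM in *wt*. *leu-4* (NCU02010), the isopropylmalate synthase that starts leucine synthesis, had 155.0 and 137.6 CPM in Δ*wc1* and Δ*wc2*, against 43.0 CPM in *wt*. *prd-4* (NCU02814), a checkpoint kinase that links DNA damage to the clock, had 138.3 and 62.4 CPM in the knockouts, against 20.3 CPM in *wt* (6.83-fold and 3.08-fold). *un-18* (NCU08616) had 209 and 200 reads in the knockouts, against 74 in *wt*.

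The genes that share a symbol prefix with these members, looked at after the values of the members were known, were mostly no members. A shared prefix does not mean a related product. Of 16 *tca* genes, 2 were members and 13 were higher in both knockouts, as were 56.5% of the 7246 genes with 50 or more reads in both. Their median smaller ratio was 1.37, beside 1.07 for those genes. Of 9 *cyt* genes, 1 was a member and 8 were higher in both knockouts (median 1.69). All 4 *aod* genes were higher in both, with smaller ratios of 1.51 to 4.08. Of the 9 *gh18* genes, 7 had enough reads and 2 were members, and the others reached a smaller ratio of 2.55 (*gh18-5*) at most (median over the 7 genes 1.08). Of the 11 *gh61* genes only 4 had enough reads, and *gh61-9* was the only member (median 0.996). *gh61-6* had 422 and 386 reads in Δ*wc1* and Δ*wc2*, against 932 in *wt*, and was lower in both. *gh61-2* had 91 and 47 reads in Δ*wc1* and Δ*wc2*, against 10 in *wt*, and fell below the read limit. The 4 catalase genes had a median smaller ratio of 0.821.

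The 55 members without a symbol include most of the largest ratios. NCU11876 had 665 reads in Δ*wc1* and 328 in Δ*wc2*, against 8 in *wt*, a ratio of 97.1 (interval 49.0 to 225.8) and 48.4 (24.3 to 113.0). NCU09171 had 60 and 77 reads in the knockouts, against 3 in *wt* (23.4-fold and 30.3-fold), with intervals that start at 7.62 and 9.98. The ratios of these genes rest on few *wt* reads. NCU04058 had 2081 and 1530 reads in Δ*wc1* and Δ*wc2*, against 125 in *wt* (19.4-fold and 14.4-fold). NCU07743 had 1460 and 1199 reads, against 124 in *wt* (13.7-fold and 11.4-fold). NCU10387 had 68 and 134 reads, against 7 in *wt* (11.3-fold and 22.6-fold). NCU10040 also exceeded 10-fold, with 12631 and 37897 reads, against 1045 in *wt* (14.1-fold and 42.8-fold), but its reads were unevenly spread over its exons, as described with the exon counts.

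The next unnamed genes by smaller ratio lay between 5-fold and 10-fold. NCU05277 had 128.0 CPM in Δ*wc1* and 57.4 CPM in Δ*wc2*, against 7.63 CPM in *wt*. NCU08793 and NCU01504 were at 56.6 and 62.5 CPM in Δ*wc1* and at 68.6 and 76.1 CPM in Δ*wc2*, against 9.69 and 11.8 CPM in *wt*. NCU11307 had 51.2 and 22.6 CPM in Δ*wc1* and Δ*wc2*, against 4.20 CPM in *wt*. These 4 genes had at least 110 reads in every constant light library. NCU11771 had 346 and 354 reads in the knockouts, against 77 in *wt*. NCU03974, NCU07768 and NCU09604 were rarer, with 168, 90 and 191 reads in Δ*wc1* and 160, 120 and 53 in Δ*wc2*, against 27, 16 and 10 in *wt*. Below 5-fold followed NCU05812 (4.97-fold and 10.2-fold), NCU06720 (5.11 and 4.83), NCU00090 (5.97 and 4.71), NCU12101 (6.28 and 4.50) and NCU05915 (5.23 and 4.39). NCU04583 is described with the differences between the knockouts. All further members had a smaller ratio of 3.01 to 4.33.

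In reads, NCU10051 exceeded all other members. It had 268237 reads in Δ*wc1* and 239856 in Δ*wc2*, against 75876 in *wt* (4.13-fold and 3.73-fold), with intervals of 4.10 to 4.16 and 3.70 to 3.76. NCU00315 had 1101 and 1565 CPM in Δ*wc1* and Δ*wc2*, against 343.7 CPM in *wt*. NCU02904 had 1328 and 1567 CPM in the knockouts, against 441.3 CPM in *wt*, and with 3.01-fold in Δ*wc1* it was the member nearest to the limit. Next inside the limit were NCU01080 (3.03) and NCU00925 (3.04), and just outside lay NCU08138 and NCU01104 (2.9999 each) and NCU06780 (2.99). By reads in the poorer knockout, NCU09604 (53 reads), NCU10470 (56) and NCU09171 (60) were just inside, and NCU09698 (49), NCU06574 (43) and NCU05035 (32) just outside. By the lower of the 30 and 120 min ratios, NCU03974 and NCU09171 (0.672 each) and *aod-1* (0.678) were just inside, and NCU02086 (0.665), NCU04932 (0.648) and NCU08786 (0.647) just outside. By the higher one, NCU05812 (1.90), NCU11771 (1.89) and *prd-4* (1.88) were inside, and NCU05735 (2.07), NCU04097 (2.08) and NCU02155 (2.13) outside.

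The rule did not use the relation between the knockouts, although it required both to be high. The median ratio of Δ*wc1* over Δ*wc2* was 0.12 on the log2 scale over the members, next to 0.02 over the 7246 genes, and 50 of the 69 members lay within 1.5-fold, where 81.0% of the 7246 genes did. The level was higher in Δ*wc1* for 41 members and higher in Δ*wc2* for 28. The interval of the ratio lay above 1 for 34 members (34.9% of the 7246 genes), below 1 for 21 (30.4%) and included 1 for 14. More than 2-fold higher in Δ*wc1* were 13 members, where 4.51% of the 7246 genes were, and more than 2-fold higher in Δ*wc2* were 2 members, where 1.31% were. Since the members had to pass in Δ*wc2*, the narrower condition, these shares are not free of the rule.

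The knockouts differed most for NCU06376, with 2147 reads in Δ*wc1* and 257 in Δ*wc2*, and 96 in *wt*, a Δ*wc1* to Δ*wc2* ratio of 8.27 (interval 7.26 to 9.45). NCU04583 was similar with 45461 reads in Δ*wc1* and 6444 in Δ*wc2*, and 1474 in *wt* (6.98, 6.80 to 7.17), which is 36.0-fold and 5.16-fold above *wt*. NCU09604 had a ratio of 3.57. Among the named genes, *for* (2.52), *gh61-9* (2.47) and *prd-4* (2.21) were more than 2-fold higher in Δ*wc1*. In the opposite direction, NCU10040 had a ratio of 0.330 (0.323 to 0.337) and NCU05812 one of 0.489 (0.387 to 0.613). The levels of *cat-3*, *cyc-1*, *aod-1* (1.49), *neg-1* and both *tca* genes lay within 1.5-fold between these 2 libraries.

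In the *wt* time course the 69 genes together held 0.942%, 0.932%, 0.938% and 0.921% of the sense reads at 0, 30, 60 and 120 min. Their median level was 34.2, 30.4, 30.2 and 36.9 CPM in the same order. The rule left the 60 min library free, and there the members went both ways. The median log2 ratio of 60 min to dark was 0.03 over the 67 members with at least 10 reads in either library, next to -0.18 over all 8052 genes and -0.13 over the 5419 genes that met the same limits at 30 and 120 min. Under median-of-ratios and TMM factors the members' median was 0.22. These factors shift all genes by the same amount, and the medians of the other genes were not recalculated under them. The 0.22 is therefore not to be set against -0.18 or -0.13. The dark library is the denominator here and in the rule. Above 2-fold at 60 min were 3 members, where 5.54% of all genes and 1.31% of those with the same limits were. Below 0.5-fold was 1 member, NCU07897, where 6.44% and 0.849% were. These shares cover genes with 10 or more reads in the dark or at 60 min. NCU07897, with 4 and 3 sense reads, did not meet that limit, so it is not to be set against them. The share of reads that were not assigned to a gene was 12.1% at 60 min and 19.2% to 21.3% in the other 3 libraries.

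Of the 3 genes above 2-fold, NCU04583 had a sense level of 39.6, 63.7, 142.4 and 58.2 CPM at 0, 30, 60 and 120 min (60 min over dark 3.60, interval 3.24 to 4.01). NCU05277 had 9.79, 10.7, 27.3 and 12.9 CPM (2.78, 2.24 to 3.49). NCU11307 had 12.8, 16.9, 25.9 and 17.3 CPM (2.03, 1.67 to 2.48). The limits at 30 and 120 min place the maximum of such genes at 60 min. NCU11876 followed with 1.94, but from 4 sense reads in the dark and 17 at 60 min. *for* had 503.8, 869.8, 843.0 and 704.8 CPM in time order (1.67 at 60 min, 1.62 to 1.73).

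The lowest 60 min ratio, that of NCU07897 (0.343), came from 4 sense reads in the dark and 3 at 60 min, with an interval of 0.0503 to 2.03. Among genes with more reads, NCU05915 (0.537), NCU05637 (0.569), NCU01504 (0.572) and NCU10051 (0.593) were lowest, each with an interval that ended below 1. NCU10051 had 2065, 1545, 1224 and 1400 CPM at 0, 30, 60 and 120 min. *cat-3* had 918.9, 1237, 917.2 and 1031 CPM, with a ratio to the dark of 1.35 (1.31 to 1.38) at 30 min and 0.998 (0.974 to 1.02) at 60 min. *cyc-1* had 420.3, 445.3, 596.1 and 487.7 CPM (1.42, 1.37 to 1.47). *aod-1* had 26.4, 17.9, 17.4 and 24.4 CPM (0.659, 0.561 to 0.775).

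Of the 69 members, 55 lay between 0.67-fold and 2-fold at 60 min, where 91.5% of the 5419 genes with the same limits did, and 11 at or below 0.67-fold (7.22%). The 5419 genes also had 10 or more reads in the dark or at 60 min, which only 67 of the 69 members had. NCU03974 and NCU07897 did not, and both are among the 11, so these counts and shares are not on the same terms. Above the dark level were 35 members (34.5% of the 5419). The interval lay above 1 for 22 members (17.8%) and below 1 for 18 (40.3%). All these counts and shares hold for scaling by the file sum. Median-of-ratios and TMM factors moved the members' median to 0.22, and the counts were not repeated under them. The highest of the 4 levels fell on the dark library in 16 members, on 30 min in 13, on 60 min in 19 and on 120 min in 21. No time point was thus shared as the maximum, and the same counts were not made over the 5419 genes. In 13 members fewer than 50 sense reads were counted in the dark, and in 8 of these fewer than 20, so that their ratios are imprecise at this depth.

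**Figure D3:**
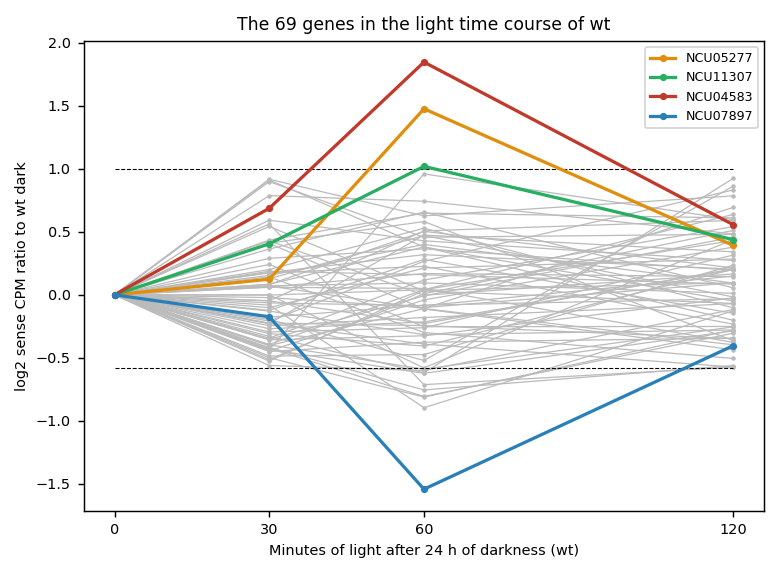
Sense level of each of the 69 genes in *wt* as log2 ratio to the dark library against minutes of light, with 1 library per time point. Dashed lines mark the limits of 0.67 and 2 that the rule applied at 30 and 120 min only. At 60 min NCU04583 (3.60-fold), NCU05277 (2.78) and NCU11307 (2.03) lie above the upper line, and NCU07897 (0.343) rests on 4 and 3 reads.

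Per the labels, a directional kit was used for the time course libraries and standard Illumina protocols for the constant light libraries, so their CPM values are given side by side only. The dark level of *wt* was above the *wt* constant light level in 60 members, at least 3-fold in 41, and above both knockouts in 18. For the counts of 41 and 18 the share over all genes was not calculated, so they do not set the members apart. The median log2 ratio of dark to constant light was 1.83 over the members and 0.99 over 6872 genes with 50 or more reads in both, of which 84.6% were above. Low *wt* levels in constant light were part of the rule. *cat-3* had 1074 and 745.8 CPM in Δ*wc1* and Δ*wc2* in constant light, 66.7 CPM in *wt* constant light and 918.9 CPM in dark *wt*. *aod-1* differed from it, with 321.2 and 214.8 CPM in the knockouts, 52.7 CPM in *wt* constant light and 26.4 CPM in dark *wt*.

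The members have 184 exon lines in the constant light files, of which 169 had 10 or more reads in the knockouts together. Of these, 160 were above *wt* in both knockouts and 126 (74.6%) were at least 3-fold above. The gene totals used the same reads, so this describes how the difference was spread. In 23 of the 48 members with more than 1 such line every line was at least 3-fold higher, and in 44 every line was higher. *cat-3* was higher all along, with 3117, 1716 and 19280 reads on its 3 lines in Δ*wc1* and 2040, 1132 and 13396 in Δ*wc2*, against 251, 170 and 1328 in *wt*.

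The exceptions were NCU10040, NCU00315, *tca-12* and NCU04303. In NCU10040, exon lines 1 to 7 were lower in the knockouts, line 1 for example with 26 reads in Δ*wc1* and 14 in Δ*wc2*, against 117 in *wt*. Lines 8 to 11 carried the difference, line 8 with 4313 and 13336 reads, against 303 in *wt*, and line 10 with 1964 and 5599, against 50. Lines 8 and 9, and likewise lines 10 and 11, held nearly the same counts in each library (within 2%), so that the same reads may have been counted more than once. The level of NCU10040 is uncertain for that reason. Such lines were found in 1 other member (*tca-10*) and in 128 genes in all. In NCU00315, line 2 had 14409 and 21794 reads in Δ*wc1* and Δ*wc2*, against 3403 in *wt*, and line 4 had 2971 and 4267, against 50, while line 3 had 2483 and 2907, against 3051. The reads of NCU11876 lay almost wholly on line 1, with 636 and 318 reads, against 4 in *wt*. With only the line with most reads of each gene, the rule kept 74 genes, 61 of them among the 69.

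**Figure D4:**
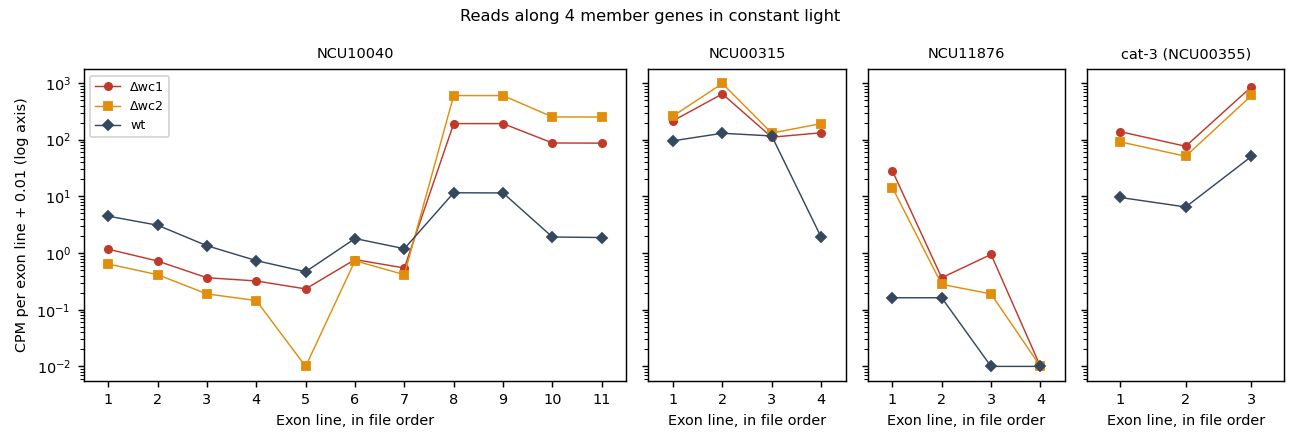
CPM on each exon line, in file order, of NCU10040, NCU00315, NCU11876 and *cat-3* in Δ*wc1*, Δ*wc2* and *wt* constant light (log axis, 0.01 CPM added). In NCU10040 the *wt* line is above both knockouts on lines 1 to 7 and below them on lines 8 to 11, whereas in *cat-3* it is below them on all 3 lines.

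The strand-specific time course showed on which strand the members were read in *wt*. Sense reads of the members added up to 92313, 154675, 200961 and 89616 at 0, 30, 60 and 120 min and antisense reads to 6462, 10670, 15377 and 8245. In the dark, the median member had 0.221% antisense reads, next to 0.265% over all genes with 10 or more reads. Antisense reads were under 1% in 49 members and above 10% in 11. The shares over all genes at these limits were not calculated, so these counts do not set the members apart. Antisense reads outnumbered sense reads in 5 members in the dark (7.25%), where 7.46% of 8272 genes did, and in 6 members at each later time.

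These 5 genes held 85.5% of the members' antisense reads in the dark. NCU03037 had 179 sense and 2889 antisense reads and NCU01553 had 222 and 2297. NCU03775 had 17 sense and 177 antisense reads, NCU03974 had 6 and 130, and NCU07897 had 4 and 29. In constant light their summed reads were 3.20-fold to 7.27-fold higher in Δ*wc1* and Δ*wc2* than in *wt* except for NCU07897 (8.73-fold in Δ*wc1*). Since the strand of those reads is not known, sense and antisense RNA cannot be told apart there. Without the 5 genes, 64 members are left.

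Antisense reads of NCU03775 and NCU04040 were higher in light. Relative to the total of sense reads, NCU03775 had 18.1, 32.1, 43.7 and 21.3 antisense reads per 1000000 at 0, 30, 60 and 120 min (60 min over dark 2.42, interval 2.06 to 2.86). NCU04040 had 14.2, 26.9, 37.3 and 24.1 (2.63, 2.19 to 3.17), and its antisense reads exceeded its sense reads at 30, 60 and 120 min. The sense level of NCU04040 was 21.1, 15.5, 20.5 and 27.5 CPM, and its 60 min ratio was 0.973 (0.823 to 1.15). For NCU03037 (0.956) and NCU01553 (1.04) the antisense ratio of 60 min to dark was close to 1. In the list of genes with an antisense transcript that the study compiled on these libraries, 9 of the 69 members occur, beside 1007 of the 9733 counted genes (10.3%). Among them are NCU03775 and NCU04040, and also *for*, *tca-12*, *prd-4*, NCU10051 and NCU02904, which had 0.101% to 0.283% antisense reads in the dark. NCU03037, NCU01553, NCU03974 and NCU07897, with more antisense than sense reads in the dark, are not in the list. The paper states that its pairs were filtered by gene distance, against false hits from overlapping coding genes. Whether this filter applied to these genes was not checked.

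**Figure D5:**
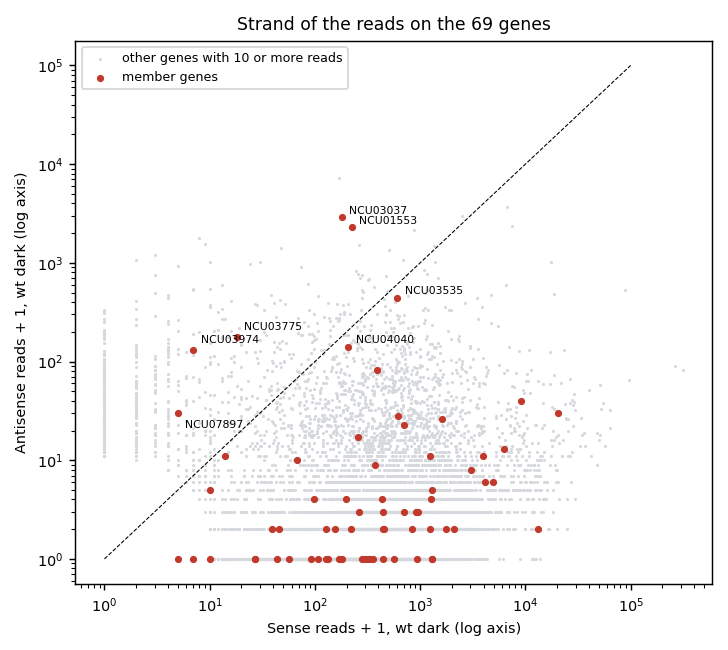
Antisense reads against sense reads of each gene in *wt* in the dark, both plus 1 on log axes, with the 69 members in red and other genes with 10 or more reads in grey. The dashed line marks equal numbers. NCU03037, NCU01553, NCU03775, NCU03974 and NCU07897 lie above it, and most members lie near the bottom with few antisense reads.

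The positions of the members were counted without a comparison to other sets of genes. By gene order in the RefSeq table, which holds 66 of the 69, only *cyc-1* and NCU01807 were direct neighbors. NCU01807 had 1681 reads in Δ*wc1* and 2093 in Δ*wc2*, against 527 in *wt* (3.72-fold and 4.69-fold). A further 4 pairs lay within 5 genes of each other, including *cyt-18* and *gh18-3*. Of 104 neighbors that were no members and had 50 or more reads in both knockouts, 2 (1.92%) were at least 3-fold higher in both. The share over all 7246 genes was 2.58%, but it includes the 69 members, which were left out of the neighbors. The 2 shares are therefore not alike, and no difference is read from them. The neighbors so raised were NCU00995 with 27695 and 21860 reads in Δ*wc1* and Δ*wc2*, against 4176 in *wt*, and *stk-34* with 1833 and 1119, against 426. They are named here because they are the only ones.

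For comparison, a list of 23 genes of the white collar pathway, light reception, the clock, carotenoid synthesis and conidiation held no member. The time course limits barred many of these genes beforehand, such as *vvd* (110.9-fold over dark at 30 min) and *frq* (4.49-fold). The lack of members is therefore no result for them. The knockout ratios below do not depend on these limits. Of the 23 genes, 9 were at or below 1/3 of *wt* in both knockouts, where 2.18% of 7611 genes were, and 0 were at least 3-fold higher in both. The median log2 ratio of the list was -1.24 in Δ*wc1* and -1.50 in Δ*wc2*. *vvd*, the photoreceptor that desensitizes the WCC, had 384 reads in Δ*wc1* and 136 in Δ*wc2*, against 12684 in *wt*. *frq* had 382 and 295 reads in Δ*wc1* and Δ*wc2*, against 1632 in *wt*. *csp-1*, which encodes a transcriptional repressor controlled by the WCC, had 38.5 and 42.6 CPM in the knockouts, against 44.2 CPM in *wt* (0.870-fold and 0.964-fold). In the list, *frh*, *sub-1* and *adv-1* were at least 1.5-fold higher in both knockouts, and none of the 3 reached 3-fold.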

How the data were processed

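The authors mapped the strand-specific *wt* reads (polyadenylated RNA) to NC10 with Bowtie and deposited raw HTSeq counts per gene, sense and antisense. Raw counts per exon line were deposited for Δ*wc1*, Δ*wc2* and *wt* in constant light. How the authors mapped these reads is not given in the sources used here. The submitters' processing notes name Bowtie2 2.1.0, TopHat2 2.0.13 and HTSeq without their roles. HTSeq's special counters were left out. The polysome library was not used.

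Counts were scaled by the file sum (CPM) without pseudocount. Since each condition had 1 library, no p-value was calculated. Depths ranged between 9725970 and 26210537 counted reads, where 3 reads, taken as the floor, are 0.308 and 0.114 CPM. Ratios carry exact (Clopper-Pearson) 95% intervals. Symbols and gene order came from the RefSeq table (assembly NC12), which holds 9215 of the 9733 counted genes. No coordinates were used. The members and lists were chosen with earlier results of these data known.

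Named are the 25 members with the largest smaller ratio, the 5 with most reads, those with a symbol, neighboring members, the 3 genes on each side of a limit, the 5 highest and lowest 60 min ratios, and *wc-1*, *wc-2*, *frq*, *vvd* and *csp-1*. Genes named for strand, exon or neighbor patterns, conidiation markers and genes sharing a symbol prefix with a member were added. This was done partly after their values were seen. Alternatives concerned scaling, limits, libraries and strands. The ratio and rule scripts were tested on simulated data. Python 3.11.15, numpy 2.4.6, pandas 2.3.3, scipy 1.17.1 and, for TMM factors, edgeR 4.0.16 in R 4.3.3 were used.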

Additional observations from a re-analysis of the deposited data

How the results depend on the processing

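Of 27 alternatives, 20 left the result within 1.5 times the count or within the spread, 7 moved it and 0 reversed it. The number of genes kept by the rule was 259 with a fold limit of 2, 20 with a limit of 5, 44 with both lower bounds at 3 or higher, 187 without the time course limits and 224 without the Δ*wc2* library. Scaling changed the members more than their number. Median-of-ratios factors gave 55 genes and TMM factors 57, each with 43 of the 69, and the file sum without the 20 most abundant genes gave 51, of which 50 were among the 69. The median log2 ratio of 60 min to dark moved to 0.22 under median-of-ratios and 0.22 under TMM factors, against 0.03. The median of Δ*wc1* over Δ*wc2* stayed between 0.06 and 0.13. The alternatives that left out a knockout library, counted strands together, left out members with more antisense reads or used 1 exon line were chosen after seeing the data. Neither the promoter motif nor the gene classes by protein product, with their alternatives, were run, since no promoter sequences or product names were used here. No paired analysis was possible because each condition has 1 library and the labels carry no replicate numbers. Members with few *wt* reads, such as NCU09171 with 3, are limited by depth.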
